A study of Mus musculus with 8 samples.

Results

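AMP-activated protein kinase (AMPK) is an energy sensor built from a catalytic alpha, a scaffolding beta and a nucleotide-binding gamma subunit, and the sestrins are stress-inducible proteins that restrain the growth-promoting kinase complex mTORC1. The 10 genes described here encode AMPK subunits (Prkaa1, Prkaa2, Prkab1, Prkab2, Prkag1 and Prkag2), the kinase Lkb1 (Stk11) that activates AMPK, and the sestrins (Sesn1, Sesn2 and Sesn3). They were chosen by name and were found among 55276 gene symbols, of which 35027 had a count in any library. All 10 were among the 17344 genes abundant enough to test, with 262 to 4655 counts per library.

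RNA was sequenced in bulk from esophageal epithelium of C57BL6 mice aged 14 to 15 weeks. The epithelial layer was peeled and dissociated, and live cells (DAPI negative, Integrin-b1 positive) were sorted by their fluorescence with Cyto-ID, a dye that stains autophagic vesicles, into a Cyto-ID Low and a Cyto-ID High fraction. The labels name 4 animals (Female1, Female2, Male1 and Male2), and each gave 1 library of each fraction, so that 8 libraries formed 2 groups of 4. No genotype, drug or other treatment is given in the labels for either group, and a value ± SD below is over n = 4 libraries.

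AMPK is activated when AMP or ADP binds the gamma subunit and Lkb1 phosphorylates the alpha subunit. Once active, it switches off fatty acid and cholesterol synthesis and promotes autophagy, in part by phosphorylating Ulk1 and by inhibiting mTORC1. Sestrins are induced by p53, FoxO factors or Atf4, depending on the family member and the stress, and act on mTORC1 through the GATOR complexes, while Sesn1 and Sesn2 also bind leucine.

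The libraries held 26285150 to 28599954 counts in Cyto-ID Low and 27486049 to 29301054 in Cyto-ID High. The fractions also differed in markers of epithelial layers. The summed level of 10 basal keratinocyte markers was 22031 to 26257 CPM (counts scaled to a common library total) in Low and 2882 to 4576 in High, and that of 10 suprabasal markers was 8720 to 25767 in Low and 142917 to 244259 in High. All 10 basal markers and all 8 proliferation markers were lower in High, and 9 of 10 suprabasal markers were higher (all but Crnn), while the basal markers remained detected in every High library. Summed leukocyte markers lay at 31.4 to 48.3 CPM in Low and 25.2 to 77.9 in High, with Cd3e and Cd3g at 0 in some libraries. Fibroblast markers summed to 403 to 644 CPM in Low and 49.3 to 660 in High, endothelial markers to 32.8 to 57.8 and 21.5 to 61.1 (Kdr at 0 in some libraries), and muscle markers to 52.5 to 79.3 and 6.74 to 81.8 (Myh2 at 0 in some). Of these lists, 7 leukocyte markers were tested, and Cd68 (log2 fold change 2.13, edgeR adjusted p 4.63e-05) was called higher in High. Cd52 was also called higher (0.93, edgeR adjusted p 0.0189, and 0.39 with 0.3 by total counts). The other 5 leukocyte markers were not called, at −0.58 to −0.26, and the median of the list was −0.43. Dcn (−2.87, edgeR adjusted p 9.15e-05) was called lower among 10 fibroblast markers, Acta2 (−1.54, edgeR adjusted p 0.0178) among 10 muscle markers, and 0 of 10 endothelial markers were called. The part of any of these differences in the results below was not tested. In bulk RNA, fewer cells of a type and less RNA per cell cannot be told apart.

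Of the 10 genes, 3 were higher and 3 lower in Cyto-ID High at a Benjamini-Hochberg adjusted p under 0.05 in edgeR's quasi-likelihood test, which is 60% of the genes where 48.7% of all tested genes were called. Among all tested genes 23.4% were called higher and 25.3% lower. The higher genes were Prkaa2, Prkag1 and Sesn2, and the lower genes were Prkab1, Prkag2 and Sesn3. The same 6 genes were those whose CPM did not overlap between the fractions, 3 in each direction, against 23.6% of all tested genes higher without overlap and 24.9% lower. These 10 genes had a median log2 fold change of −0.28, and all tested genes had −0.09. In the alpha and beta families 1 subunit was called and the other was not, and among the gamma subunits and the sestrins genes were called in opposite directions.

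These calls depended on how the libraries were scaled. The trimmed mean of M values (TMM), used throughout unless stated, allows for a few very abundant transcripts taking a large share of a library. When libraries were scaled by their total counts alone, the median log2 fold change of all tested genes fell by 0.55 to −0.64, and 1 of the 10 genes was then called higher (Sesn2) and 7 lower. Under that scaling 61.7% of all tested genes were called, 12.6% higher and 49.1% lower. Ratios between genes within a library do not depend on the scaling and are given after the single genes.

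**Figure D1:**
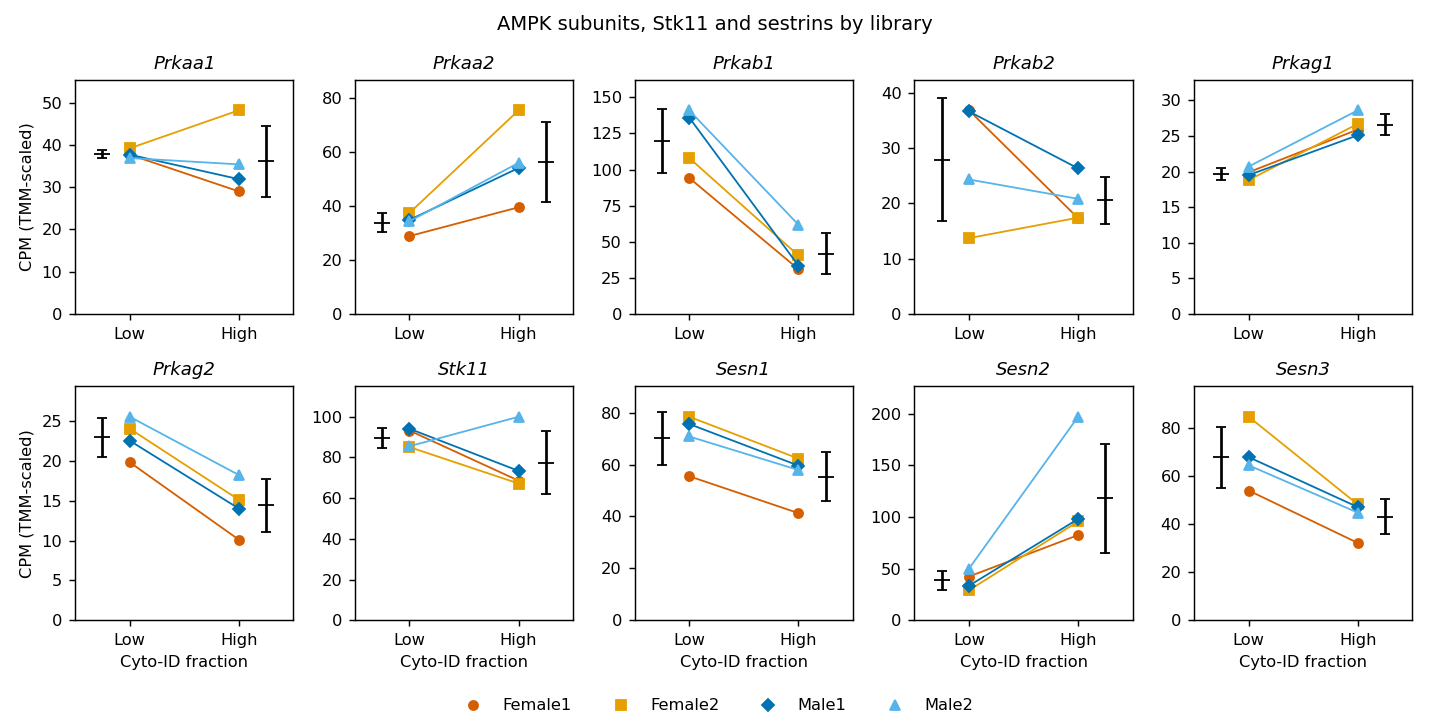
TMM-scaled CPM of each gene (vertical axes, starting at 0) in the Cyto-ID Low and Cyto-ID High libraries; lines join the libraries of an animal, and bars give the mean ± SD over 4 libraries. Prkaa2, Prkag1 and Sesn2 lay higher in every High library than in any Low library and Prkab1, Prkag2 and Sesn3 lower; scaled by total counts, Prkag1 had a log2 fold change of −0.13.

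Sestrin promoters are shown because Sesn2 and Sesn3 changed in opposite directions. RefSeq promoters on GRCm38 were found for all 10 genes (13 promoters), and the windows printed run from 250 to 46 bases before the start, 5′ to 3′ on the strand of the gene. The Sesn2 window is chr4:132510502-132510706 on the minus strand, directly upstream of the gene. The Sesn3 window is chr9:14276051-14276255 on the plus strand, in an intron of a longer annotated transcript. The Sesn1 window is chr10:41887189-41887393 on the plus strand, before the inner of its starts and within an intron of the gene. Capitals mark every match to the motifs searched on both strands, and a CCAAT box on the reverse strand reads ATTGG.
Sesn2: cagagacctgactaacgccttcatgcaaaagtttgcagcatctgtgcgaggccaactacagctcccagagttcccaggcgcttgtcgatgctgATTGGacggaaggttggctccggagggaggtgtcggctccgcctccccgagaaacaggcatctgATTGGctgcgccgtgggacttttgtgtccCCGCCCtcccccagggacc
Sesn3: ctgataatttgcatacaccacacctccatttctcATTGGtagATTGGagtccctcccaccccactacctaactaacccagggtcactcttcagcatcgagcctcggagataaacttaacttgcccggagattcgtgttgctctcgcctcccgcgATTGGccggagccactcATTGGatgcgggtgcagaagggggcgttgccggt
Sesn1: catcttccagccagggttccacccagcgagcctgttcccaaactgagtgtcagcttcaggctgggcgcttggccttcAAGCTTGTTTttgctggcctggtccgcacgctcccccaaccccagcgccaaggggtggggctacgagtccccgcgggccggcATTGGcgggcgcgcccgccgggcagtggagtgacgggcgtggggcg

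The Sesn2 window held 2 CCAAT boxes on the reverse strand, 157 to 153 and 93 to 89 bases before the start, and 1 GC box (GGGCGG), 64 to 59 bases before it. The Sesn3 window held 4 CCAAT boxes on the reverse strand and no GC box. The printed Sesn1 window held 1 CCAAT box, 91 to 87 bases before the start, and 1 p53 half-site, 173 to 164 bases before it, whose pattern matches on both strands. The window before the outer start of Sesn1 (chr10:41810324-41810528), which lies in an annotated exon and is not printed, held 3 GC boxes, 1 CCAAT box and no p53 half-site. No match overlapped a match to another motif in these windows. Of 32851 promoter windows of the same length, 29.2% held a CCAAT box, 25.6% a GC box and 5.93% a p53 half-site. Among the 13 windows of the 10 genes the counts were 8, 6 and 2. None of the 13 held the E-box CACGTG (4.48% of all windows), the cAMP response element TGACGTCA (0.877%), the composite C/EBP-ATF element TGATGNAA (2.8%), the forkhead motif GTAAACA (2.64%) or the antioxidant response core TGACNNNGC (7.9%). A match is a description of the letters only. The GC content was 61% for Sesn2, 55.1% for Sesn3 and 69.3% for Sesn1, where the median over all windows was 51.7%.

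Of the catalytic subunits, Prkaa2 was higher in Cyto-ID High and Prkaa1 was not called. Prkaa2 (chromosome 4, 105029874 to 105109890, minus strand) had 28.9 CPM in Low Female1, 37.5 in Low Female2, 34.9 in Low Male1 and 34.4 in Low Male2. In High it had 39.6, 75.6, 54.2 and 56.1 CPM in the same order of animals. Every High library lay above every Low library, with Female2 the highest and Female1 the lowest in both fractions. The means were 33.9 ± 3.62 and 56.4 ± 14.8 CPM, and the log2 fold change was 0.73 (edgeR adjusted p 0.0115, SE 0.20, 95% interval 0.29 to 1.17) with a rise in 4 of 4 animals. Scaled by total counts, Prkaa2 had a log2 fold change of 0.15 with an edgeR adjusted p of 0.483.

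Prkaa1 (chromosome 15, 5143861 to 5181899, plus strand), the other catalytic subunit, had 37.7, 39.2, 37.7 and 36.9 CPM in Low and 29, 48.2, 31.9 and 35.4 in High, in the same order of animals. The Low libraries lay close together, and the High libraries fell on either side of them, with High Female2 the highest of all. The log2 fold change was −0.07 (edgeR adjusted p 0.759, SE 0.16), and its 95% interval ran from −0.44 to 0.29. Without High Female1 it was 0.05 (edgeR adjusted p 0.801), and scaled by total counts Prkaa1 was called lower (−0.65, edgeR adjusted p 0.00253).

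Prkab1, a beta subunit that holds the complex together and carries a glycogen-binding domain, had the largest fall of the 10 genes. Prkab1 (chromosome 5, 116013586 to 116024508, minus strand) had 94.2 CPM in Low Female1, 108 in Low Female2, 136 in Low Male1 and 141 in Low Male2. In High it had 31, 40.5, 33.5 and 61.8 CPM. The lowest Low library lay above the highest High library, which was Male2. The mean went from 120 ± 22.2 to 41.7 ± 14 CPM, and the log2 fold change was −1.52 (edgeR adjusted p 0.000181, SE 0.20, 95% interval −1.96 to −1.07), or 2.86-fold lower, with a fall in 4 of 4 animals. Scaled by total counts the value was −2.12 (edgeR adjusted p 1.04e-05).

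Prkab2 (chromosome 3, 97658193 to 97673812, plus strand), the other beta subunit, was not called. It had 36.8, 13.7, 36.6 and 24.3 CPM in Low and 17.3, 17.4, 26.3 and 20.8 in High. The Low libraries spread over the whole range of the High libraries, with Low Female2 the lowest of all 8. The log2 fold change was −0.45 (edgeR adjusted p 0.212, SE 0.28, 95% interval −1.08 to 0.17), and 3 of 4 animals had a lower value in High. Without Low Female1 it was −0.12 (edgeR adjusted p 0.724), whereas without Low Female2 it was called at −0.64 (edgeR adjusted p 0.0339). It was also called with no filter on low counts (−0.49, edgeR adjusted p 0.0398) and with scaling by total counts (−0.99, edgeR adjusted p 0.0178).

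The gamma subunits moved in opposite directions under TMM scaling, whereas with total counts Prkag1 had a value of −0.13. Prkag1 (chromosome 15, 98812797 to 98831521, minus strand), whose product binds adenine nucleotides, had 19.9, 18.8, 19.5 and 20.7 CPM in Low and 25.9, 26.7, 25.1 and 28.6 in High. The High libraries lay closer together, relative to their mean, than those of any other of the 10 genes, and the fractions did not overlap. The means were 19.7 ± 0.832 and 26.6 ± 1.46 CPM, and the log2 fold change was 0.43 (edgeR adjusted p 0.0135, SE 0.12, 95% interval 0.16 to 0.70). Scaled by total counts, the edgeR adjusted p of Prkag1 was 0.334, and with no filter on low counts the value was 0.39 with an edgeR adjusted p of 0.142.

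Prkag2 (chromosome 5, 24862744 to 25100642, minus strand), a gamma subunit with a longer amino-terminal part, was lower in High. It had 19.8, 24, 22.5 and 25.5 CPM in Low and 10.1, 15.1, 14 and 18.2 in High. All 4 High libraries lay below all 4 Low libraries, and Female1 was the lowest and Male2 the highest in both fractions. The mean went from 22.9 ± 2.42 to 14.4 ± 3.34 CPM, and the log2 fold change was −0.69 (edgeR adjusted p 0.00863, SE 0.17, 95% interval −1.08 to −0.30). With total counts it was −1.27 (edgeR adjusted p 0.000101).

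Prkag3, the gamma subunit best known from skeletal muscle, is outside the 10 genes and was followed as the remaining AMPK subunit. It was scarce, with 0.71 to 1.04 CPM in Low and 2.2 to 4.09 in High, from 23 to 94 counts per library. Its log2 fold change was 1.62 (edgeR adjusted p 0.00171, SE 0.31), and 1.03 (edgeR adjusted p 0.0142) with total counts.

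Stk11 (chromosome 10, 80115803 to 80130682, plus strand), which encodes the upstream kinase Lkb1, was not called. It had 93.2, 85.1, 94.1 and 85.5 CPM in Low and 68.6, 67.2, 73.4 and 100 in High. In 3 animals High was lower, while High Male2 was the highest of all 8 libraries. The log2 fold change was −0.22 (edgeR adjusted p 0.255, SE 0.15, 95% interval −0.55 to 0.11), and with total counts Stk11 was called lower (−0.79, edgeR adjusted p 0.000424). Without High Male2 it was −0.35 with an edgeR adjusted p of 0.0611. Exons of Stk11 share 232 bases with Cbarp on the opposite strand, a gene with 890 to 1303 counts per library, and whether strand was used in the counting is not given in the sources used here. The exons of Prkag1 share 950 bases with B130046B21Rik (4 to 38 counts), those of Prkag2 share 795 with Prkag2os2 (2 to 18) and 142 with Prkag2os1 (0 to 10), and those of Prkab2 share 9 with Gm17651 (0 counts).

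Sesn2, a leucine sensor known to be induced by Atf4, had the largest rise of the 10 genes. Sesn2 (chromosome 4, 132492032 to 132510501, minus strand) had 42.4 CPM in Low Female1, 29.1 in Low Female2, 33.5 in Low Male1 and 50 in Low Male2. In High it had 82.5, 95.7, 98.1 and 197 CPM. The fractions did not overlap, and High Male2 stood far above the other High libraries. The means were 38.8 ± 9.31 and 118 ± 52.8 CPM, and the log2 fold change was 1.57 (edgeR adjusted p 0.00072, SE 0.26, 95% interval 0.99 to 2.14), or 2.97-fold higher. The log2 difference within animals ran from 0.96 (Female1) through 1.55 (Male1) and 1.71 (Female2) to 1.97 (Male2). Without High Male2 the value was 1.28 (edgeR adjusted p 0.000571), and with total counts 0.98 (edgeR adjusted p 0.00238). High Male2 also had the highest summed suprabasal markers (244259 CPM) and the lowest summed fibroblast (49.3) and muscle (6.74) markers of the 8 libraries, and the part of these in its Sesn2 level was not tested.

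Sesn3 (chromosome 9, 14275067 to 14333101, plus strand), a sestrin known as a FoxO target, was lower in High. It had 54, 84.7, 67.9 and 64.5 CPM in Low and 32.2, 48.2, 47.1 and 44.8 in High. All High libraries lay below all Low libraries, with Female1 the lowest and Female2 the highest in both fractions. The mean went from 67.8 ± 12.7 to 43.1 ± 7.38 CPM, and the log2 fold change was −0.66 (edgeR adjusted p 0.0145, SE 0.18, 95% interval −1.07 to −0.24), or 1.58-fold lower. Without both libraries of Male2 it was −0.64 with an edgeR adjusted p of 0.0509, and with total counts −1.23 (edgeR adjusted p 0.000548).

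Sesn1 (chromosome 10, 41809935 to 41908424, plus strand), a sestrin known as a p53 target, lay lower in High in 4 of 4 animals but did not pass the test with sex as a covariate. It had 55.5, 78.4, 75.6 and 70.8 CPM in Low and 41.3, 62.3, 59.6 and 57.9 in High. The fractions overlapped because the Low library of Female1 lay below 3 High libraries. The log2 fold change was −0.34 (edgeR adjusted p 0.12, SE 0.17, 95% interval −0.72 to 0.03). With the animal as a block, which compares the fractions within animals, it was −0.35 (edgeR adjusted p 0.0203, SE 0.10) and Sesn1 was called. The blocked fit thus called 3 of the 10 genes higher and 4 lower, where it called 53.8% of all tested genes, 25.4% higher and 28.5% lower. Sesn1 was also called without Low Female1 (−0.46, edgeR adjusted p 0.0373), without both libraries of Female2 (−0.33, edgeR adjusted p 0.049) and with total counts (−0.92, edgeR adjusted p 0.00123). It was −0.22 without Low Female2 (edgeR adjusted p 0.287) and −0.23 without High Female1 (edgeR adjusted p 0.286).

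**Figure D2:**
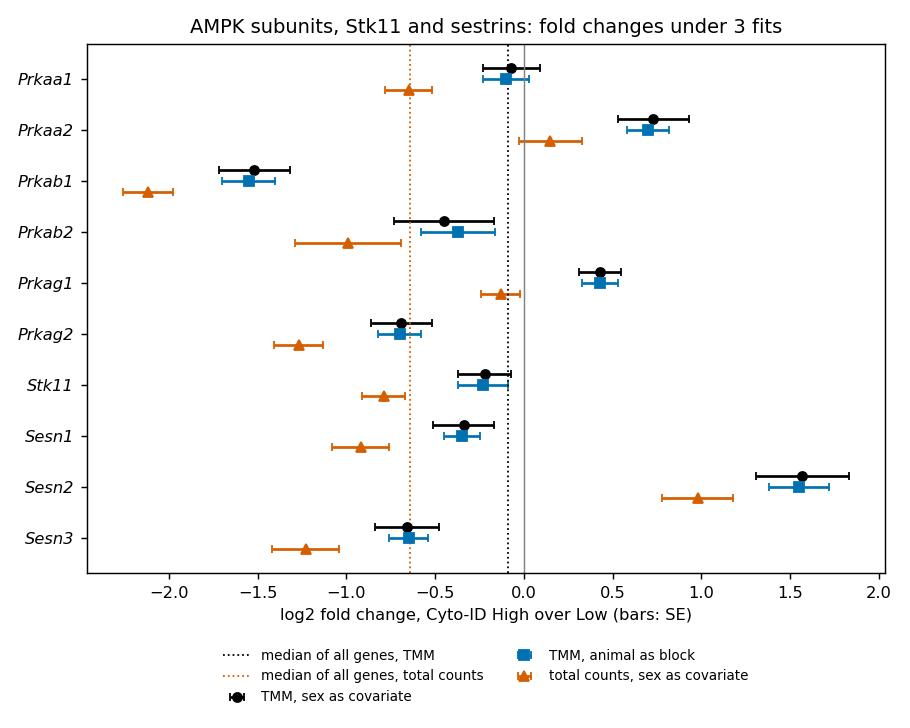
Log2 fold change, Cyto-ID High over Low, of each gene with its SE in 3 edgeR fits (TMM with sex as covariate, TMM with the animal as block, total counts with sex as covariate); dotted lines mark the median of all tested genes under TMM (−0.09) and under total counts (−0.64). Scaling by total counts moved every gene to the left, Prkag1 to −0.13 and Sesn2 from 1.57 to 0.98.

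Ratios between genes of a family were compared within libraries, as the log2 of the ratio of counts with 0.5 added, and tested by an exact two-sided permutation test over the 70 ways of splitting 8 libraries into groups of 4. The smallest p this design allows is 0.0286, and p-values were adjusted over the 6 ratios. These splits do not keep the libraries of an animal together. With signs changed within animals, all 6 ratios gave an exact p of 0.125, the smallest that 4 animals allow, so that no ratio could pass within animals. The Prkaa1/Prkaa2 ratio was 0.38, 0.07, 0.11 and 0.10 in Low and −0.45, −0.65, −0.76 and −0.66 in High. Prkaa1 thus had more counts than Prkaa2 in each Low library and fewer in each High library. The mean difference was −0.80, or 1.74-fold, with an exact p of 0.0286 and an adjusted p of 0.0343, and the 4 animals differed little in it, from −0.87 to −0.72.

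The Prkag1/Prkag2 ratio moved the other way, from −0.21 ± 0.16 in Low to 0.92 ± 0.31 in High on the log2 scale. The libraries did not overlap (0.01 was the highest in Low and 0.65 the lowest in High), and the difference of 1.13, or 2.19-fold, had an exact p of 0.0286 and an adjusted p of 0.0343. The Prkab1/Prkab2 ratio fell in 4 of 4 animals, by 1.19 on average, but the fractions overlapped. It was 1.36, 2.98, 1.89 and 2.53 in Low and 0.84, 1.22, 0.35 and 1.57 in High, and the exact p was 0.0571, also after adjustment.

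Among the sestrins all 3 ratios separated the fractions with an exact p of 0.0286 and an adjusted p of 0.0343. The Sesn1/Sesn2 ratio ran from 0.39 to 1.43 in Low and from −1.77 to −0.62 in High, a mean difference of −1.90 or 3.73-fold. Sesn1 had more counts than Sesn2 in every Low library and fewer in every High library. The Sesn2/Sesn3 ratio was −0.82 ± 0.57 in Low and 1.38 ± 0.53 in High, a difference of 2.20 or 4.6-fold. The Sesn1/Sesn3 ratio changed the least, from 0.05 ± 0.12 to 0.36 ± 0.01, a difference of 0.30 or 1.24-fold, with fewer counts of Sesn3 than of Sesn1 in every High library.

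**Figure D3:**
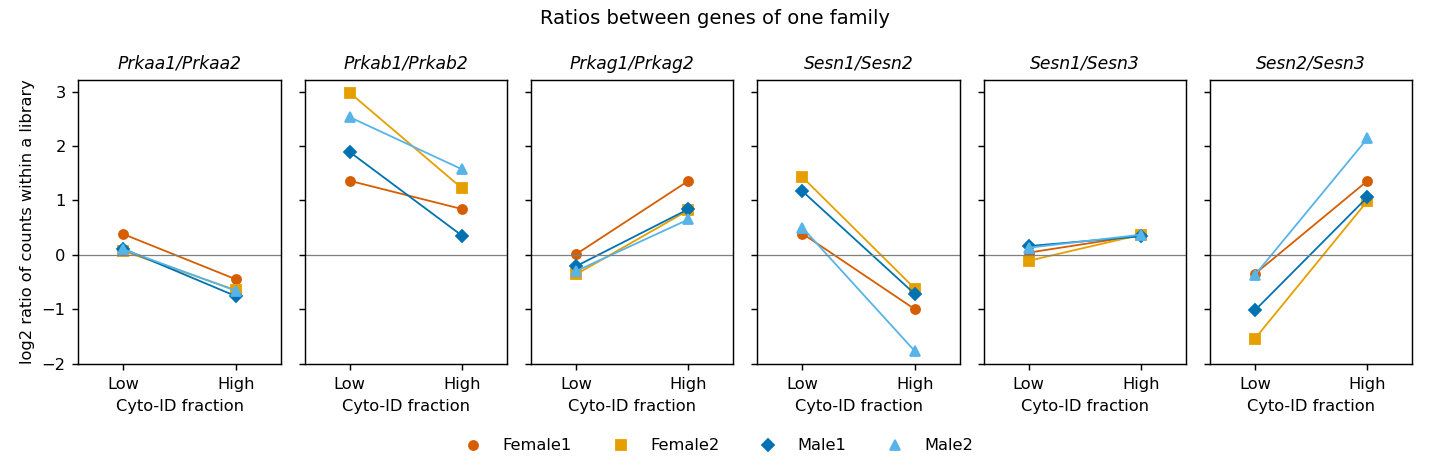
Log2 ratio of counts between pairs of genes of a family within each library (vertical axis shared by the panels, grey line at equal counts); lines join the Cyto-ID Low and High libraries of an animal. All lines of a panel run the same way, and only for Prkab1/Prkab2 do the fractions overlap.

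Levels can be compared between genes only per length, here as CPM per kilobase of merged exons. These lengths count every annotated exon (15.269 kb for Sesn3, 3.982 for Sesn1 and 3.475 for Sesn2), so ranks and shares rest on the annotation. Which of these exons were transcribed here was not tested. Per kilobase, Prkab1 was the highest of the 10 genes in Cyto-ID Low, at 39 ± 7.24. It was followed by Stk11 (19.5), Sesn1 (17.6), Sesn2 (11.2), Prkag1 (9.07), Prkaa1 (8.14), Prkab2 (5.47), Sesn3 (4.44), Prkaa2 (4.26) and Prkag2 (3.54). Neighbours in that order whose libraries did not overlap were Prkab1 over Stk11, Prkag1 over Prkaa1 and Prkaa1 over Prkab2, and the other neighbours overlapped. In Cyto-ID High the order opened with Sesn2 at 34 ± 15.2, followed by Stk11 (16.9), Sesn1 (13.9), Prkab1 (13.6), Prkag1 (12.2), Prkaa1 (7.76), Prkaa2 (7.08), Prkab2 (4.02), Sesn3 (2.82) and Prkag2 (2.22). There the neighbours without overlap were Sesn2 over Stk11, Prkag1 over Prkaa1 and Prkab2 over Sesn3. Sesn2 thus went from the fourth place to the highest, and Prkab1 from the highest to the fourth.

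As shares of a family's summed CPM per kilobase, Prkaa2 made up 34.3% ± 2.25 of the alpha subunits in Low and 47.5% ± 2.28 in High. Prkag1 made up 70.6% ± 2.37 of the gamma subunits in Low and 80.6% ± 2.96 in High, while Prkag2 went from 27.5% ± 2.07 to 14.5% ± 2.43 and Prkag3 from 1.89% ± 0.308 to 4.97% ± 1.41. Prkab1 remained the main beta subunit, with 87.6% ± 5.27 in Low and 76.4% ± 6.55 in High. Sesn2 went from 33.7% ± 7.88 of the sestrins to 65.6% ± 7.67, Sesn1 from 52.9% ± 5.88 to 28.6% ± 6.36 and Sesn3 from 13.4% ± 2.24 to 5.82% ± 1.31. Prkaa1, Prkab1, Prkag1 and, in High, Sesn2 were thus the most abundant transcripts of their families per length, although Prkaa1 and Prkaa2 came close to equal in High.

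**Figure D4:**
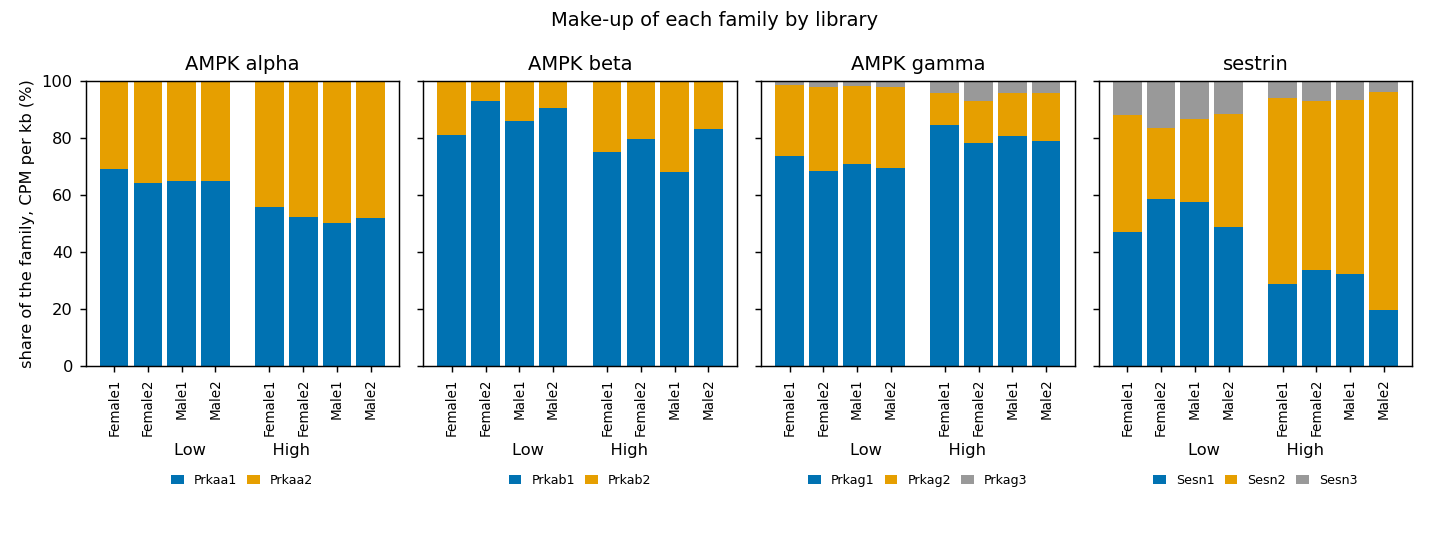
Share (%) of each gene in the summed CPM per kilobase of its family, 1 stacked bar per library, with the 4 Cyto-ID Low libraries on the left and the 4 High libraries on the right of each panel. Sesn2 made up 25% to 41.1% of the sestrins in Low and 59.4% to 76.4% in High, and Prkaa2 30.9% to 35.8% of the alpha subunits in Low and 44.4% to 49.8% in High.

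Summed over a family, the beta subunits fell from 44.5 ± 7.57 to 17.6 ± 4.62 CPM per kilobase, and they were lower in High in 4 of 4 animals under TMM and under total counts (53.8 ± 6.79 and 14.2 ± 1.67). The alpha sum was 12.4 ± 0.585 in Low and 14.8 ± 3.64 in High under TMM and 15.1 ± 1.35 and 12.1 ± 2.58 under total counts, so that its direction depended on the scaling. The gamma sum likewise was 12.9 ± 0.607 and 15.2 ± 1.22 under TMM but 15.6 ± 0.684 and 12.5 ± 0.839 under total counts. The sestrin sum was 33.2 ± 2.76 in Low and 50.7 ± 16.3 in High under TMM, higher in 4 of 4 animals, and 40.3 ± 3.25 and 40.6 ± 7.11 under total counts, higher in 2 of 4. These sums were not tested.

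Whether the difference between the fractions depends on sex could not be settled for these genes. The interaction of sex and fraction called 0 of the 10 and 0% of all tested genes in edgeR at an adjusted p under 0.05. Before adjustment, 0 of the 10 and 19 of all tested genes had a p under 0.05 in edgeR, where evenly spread p-values would give 867, and the median p was 0.688. DESeq2 called 0 genes, with 5 under 0.05 before adjustment. The test was thus too conservative in these libraries to speak for or against a dependence on sex. The largest estimate was 0.50 for Sesn2 (male minus female, SE 0.51), and the SE ran from 0.27 to 0.60 over the genes, from 2 animals of each sex.

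Around AMPK and the sestrins, 100 genes in 10 lists were examined, and 37 were called higher and 29 lower in Cyto-ID High under TMM but 25 higher and 43 lower with total counts. Over all tested genes the shares called were 23.4% higher and 25.3% lower under TMM and 12.6% and 49.1% with total counts. Under TMM these 100 genes had a median of 0.26 on the log2 scale. A list of so few genes whose calls lie near those shares shows nothing about the list. Among the upstream kinases and partners of Lkb1, 4 of 7 were higher and 2 lower (median 0.51), and with total counts 2 and 2 (−0.07). The calcium-dependent kinases that phosphorylate AMPK moved apart. Camkk1 had a log2 fold change of 2.33 (edgeR adjusted p 3.09e-05, SE 0.22), from 15.8 ± 3.36 to 80.1 ± 18.3 CPM, and Camkk2 had −1.02 (edgeR adjusted p 0.000666, SE 0.16), from 12.7 ± 0.984 to 6.28 ± 0.946. Among 12 kinases related to AMPK that Lkb1 activates, 3 were higher and 2 lower (median 0.18), but with total counts 3 were higher and 5 lower (−0.37). The Nuak pair again parted. Nuak2 went from 21.1 ± 2.35 to 86.9 ± 22.1 CPM (log2 fold change 2.04, edgeR adjusted p 4.11e-05) and Nuak1 from 58.6 ± 17.7 to 7.32 ± 0.933 (−2.98, edgeR adjusted p 1.27e-05).

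Of 20 genes whose products AMPK phosphorylates, 9 were higher and 6 lower (median 0.28), but with total counts 5 were higher and 9 lower (−0.29). Txnip, an inhibitor of glucose uptake and thioredoxin, went from 248 ± 75.5 to 22.1 ± 0.71 CPM (−3.48, edgeR adjusted p 1.3e-05). Acaca, the fatty acid synthesis enzyme most used as a readout of AMPK, rose by 1.59 (edgeR adjusted p 1.83e-05). Srebf2, the regulator of cholesterol genes, rose by 2.10 (edgeR adjusted p 2.42e-05). Acacb and Srebf1 of the same list rose by 0.70 and 0.76 (edgeR adjusted p 0.0229 and 0.00167). With total counts Acacb and Srebf1 were not called (0.17 and 0.20, edgeR adjusted p 0.615 and 0.258), while Acaca and Srebf2 remained higher (1.03 and 1.53). Acaca, Acacb, Srebf1 and Srebf2 were named after their values were seen. These are transcript levels, and phosphorylation of the products was not measured.

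In the GATOR complexes and the Castor proteins, through which sestrins and arginine act on mTORC1, 3 of 10 genes were higher and 3 lower (median 0.33), and with total counts 1 and 4 (−0.23). Nprl2, a subunit of the inhibitory GATOR1, rose by 1.13 (edgeR adjusted p 0.000253), from 15.3 ± 1.32 to 33.4 ± 5.61 CPM. The arginine sensor Castor1 fell by 1.39 (edgeR adjusted p 0.000508), from 13.4 ± 2.96 to 5.12 ± 1.4. Of 8 adenylate kinases and AMP deaminases, which set the AMP level that the gamma subunits sense, 2 were higher and 2 lower (median 0.04), and with total counts 1 and 3 (−0.55). The AMP deaminase Ampd3 went from 17.4 ± 2.26 to 1.75 ± 0.366 CPM (−3.31, edgeR adjusted p 1.27e-05).

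Of 9 transcription factors known to induce sestrins, 2 were higher and 4 lower (median 0.14), and with total counts 2 and 5 (−0.44). The p53 family was lower throughout. Trp73 went from 32.1 ± 6.75 to 1.94 ± 0.478 CPM (−4.04, edgeR adjusted p 1.27e-05), Trp63, which also marks basal cells, from 504 ± 108 to 121 ± 12.8 (−2.06, edgeR adjusted p 3.18e-05), and Trp53 from 97.8 ± 7.69 to 38.2 ± 11.1 (−1.37, edgeR adjusted p 0.000176). Foxo1 was lower (−0.96, edgeR adjusted p 0.000426), while Foxo3 (0.95, edgeR adjusted p 0.00142) and Cebpb (1.99, edgeR adjusted p 9.77e-05) were higher. Atf4 (0.20, edgeR adjusted p 0.491), Nfe2l2 (0.39, edgeR adjusted p 0.125) and Foxo4 (0.14, edgeR adjusted p 0.502) were not called. With total counts Atf4 and Nfe2l2 had −0.37 and −0.20 (edgeR adjusted p 0.0925 and 0.268), and Foxo4 was called lower (−0.44, edgeR adjusted p 0.013). Of these factors, all but Trp73 and Trp63 were named after their values were seen.

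Target genes of these factors other than the sestrins also included genes called in either direction. Of 12 p53 targets 5 were higher and 1 lower (median 0.25), but with total counts 3 were higher and 4 lower (−0.31). Among the higher genes were the cell cycle inhibitor Cdkn1a, at 287 ± 89.8 CPM in Low and 1247 ± 346 in High (2.12, edgeR adjusted p 0.000115), and Zmat3 (2.09, edgeR adjusted p 1.3e-05). Of 12 Atf4 targets 6 were higher and 3 lower (median 0.59), and with total counts 5 and 4 (0.03). The cystine transporter Slc7a11 went from 8.4 ± 2.86 to 57 ± 10.2 CPM (2.77, edgeR adjusted p 4e-05), and Trib3, a pseudokinase of the stress response, from 3.41 ± 1.45 to 18 ± 1.95 (2.42, edgeR adjusted p 6.36e-05). Of 9 FoxO targets 2 were higher and 6 lower (median −1.40), and with total counts 2 and 7 (−1.94), with the transcription factor Klf15 down to 0.86 ± 0.183 from 12.8 ± 6.34 CPM (−3.86, edgeR adjusted p 3.01e-05) and the transcriptional regulator Cited2 up to 158 ± 49.4 from 27.1 ± 9.02 (2.55, edgeR adjusted p 0.000109). None of these counts was tested as a set, and the lists share the 8 libraries with the AMPK and sestrin genes.

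**Figure D5:**
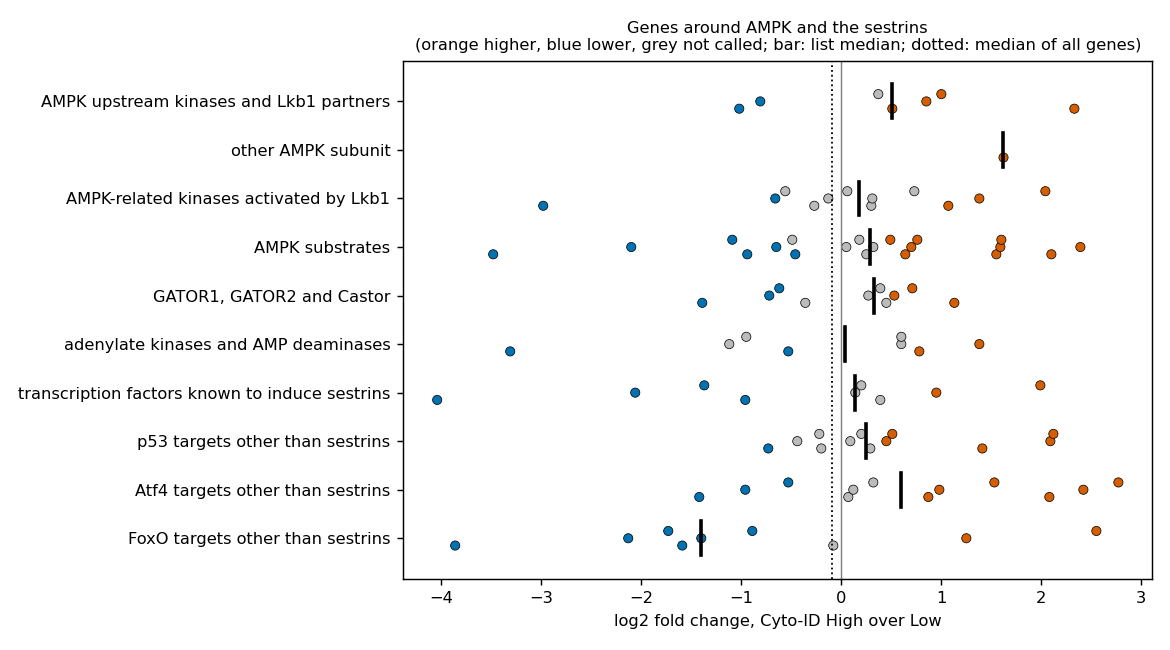
Log2 fold change, Cyto-ID High over Low (TMM, sex as covariate), of each gene in 10 lists around AMPK and the sestrins; orange points were called higher, blue points lower and grey points neither at an adjusted p under 0.05, bars mark list medians and the dotted line the median of all tested genes (−0.09). FoxO targets have the lowest median (−1.40, and −1.94 with total counts), and the list of the other AMPK subunit holds Prkag3 alone (1.62, and 1.03 with total counts).

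The genes whose log2 CPM ran most alike with Sesn2 over the 8 libraries, among 11042 genes with a mean of at least 5 CPM, were Bcl3 (Pearson r 0.993), Baiap2 (0.992) and Rtn4r (0.990). Those most like Prkab1 were Lrch1 (0.996), Mapre3 (0.995) and Mybbp1a (0.994). The 8 points fall into the 2 fractions, so a gene that differs between them correlates for that alone, and 1741 genes had an r over 0.9 with Sesn2 and 1404 with Prkab1.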

How the data were processed

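The values are raw counts by gene symbol in 1 deposited table, judged so because all are whole and library totals differ. STAR 2.7.3, DESeq2 and GRCm38 are named in the submitters' processing notes. The counting tool, annotation and use of strand are not given in the sources used here. From these counts, genes were kept by filterByExpr, scaled by TMM and tested with edgeR 4.0.16 in R 4.3.3 (glmQLFit and glmQLFTest, two-sided, sex as covariate, Benjamini-Hochberg adjustment over 17344 genes, threshold 0.05). The biological coefficient of variation was 0.257, and log2 CPM used a prior count of 2. The 95% intervals used 9.56 degrees of freedom, the residual ones and edgeR's prior ones together. Lengths, coordinates and exon overlaps came from GENCODE M21. Fits were tested on simulated counts in which few genes changed, which does not check the scaling where many genes differ, as here.

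Each animal gave both fractions. Deviations from the mean of a fraction correlated between the libraries of an animal at 0.433 (Female1), 0.316 (Female2), −0.0161 (Male1) and 0.277 (Male2). Between libraries of different animals the values ran from −0.372 (High Male2 with Low Female1) to 0.35 (High Male1 with Low Female1), so the ranges overlapped. The main fit did not pair the libraries of an animal, so its p-values measure the spread between libraries beyond sex and fraction. Only the fit with the animal as block compared the fractions within animals.

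The genes and lists were chosen with earlier results of these data known. Genes named from lists are, for each list, the 2 called genes with the largest log2 fold change in size, and, for the called genes with the highest and the lowest log2 fold change, the 3 most correlated genes. Some genes the rule names are not reported here. Alternatives were RLE size factors, total counts, no filter, at least 10 counts in every library, DESeq2 1.42.0, limma-voom (limma 3.58.1), robust dispersion, no covariate, the animal as block and each library left out. Leaving out both libraries of Female2 or of Male2, and total counts for the gap between Sesn2 levels in High, were added after seeing the data.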

Additional observations from a re-analysis of the deposited data

Results flagged for a closer look

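Sesn2 in the Cyto-ID High library of Male2, at 197 CPM, stood apart from the other 3 High libraries, which lay at 82.5 to 98.1 CPM. Its gap to the nearest library was 0.864 of the range of the group, above Dixon's 95% critical value for 4 samples. Of 20 groups of 4 examined (10 genes in 2 fractions) this was the only 1, and chance alone gives about 1 in 20. Without this library Sesn2 had a log2 fold change of 1.28 (edgeR adjusted p 0.000571), against 1.57 with it. Scaled by total counts, the library stood at 134 and the others at 75.7 to 87.8, and the gap of 0.791 of the range was then below the critical value, so that the distance depends on the scaling. The use of total counts on this gap was added after seeing the data.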

How the results depend on the processing

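Of the 10 genes, 3 (Prkab1, Prkag2 and Sesn2) kept their direction and their call under all 19 alternatives. The same held for Prkag3, the genes named by correlation with Sesn2 or Prkab1, and the called pathway genes named above, except Acacb and Srebf1. Acacb, Srebf1, Atf4, Nfe2l2 and Foxo4 were compared with total counts only, where Acacb and Srebf1 lost their calls and Foxo4 was called lower. Cell type markers were recomputed with total counts only, where Cd52 lost its call (0.39, edgeR adjusted p 0.3). Scaling by total counts moved the results most: 1 of the 10 genes was then higher and 7 lower, and Prkag1 reversed to −0.13 (edgeR adjusted p 0.334). That scaling also ended the call of Prkaa2 and called Prkaa1, Prkab2, Stk11 and Sesn1 lower. Leaving out 1 library gave Prkaa1 a range from −0.25 to 0.05, with the sign turned without High Female1 (edgeR adjusted p 0.801). In all, 8440 genes were called, and over the settings that left out libraries 7269 to 8106. Every such setting called 3 of the 10 genes higher and 2 to 4 lower, the 2 without both libraries of Male2. The replicate block, with the animal in place of sex, called 9336 genes (8393 of them shared) and changed 1 call of the 10, that of Sesn1. For ratios within animals, exact sign changes gave a p of 0.125, the smallest 4 animals allow, with a mean difference of −0.80 for Prkaa1/Prkaa2 and 2.20 for Sesn2/Sesn3. Ratios without 1 library kept their direction but could not pass, since the smallest exact p is then 0.0571. Genes called among the 100 in lists numbered 66, and 60 to 73 over the alternatives. With total counts they numbered 68, of which 25 were higher and 43 lower. Each of the 10 genes had 262 or more counts in every library, and the number of animals, 4, limits the precision.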
